A study of Mus musculus with 18 samples.

Results

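The response to complete Freund's adjuvant (CFA) was compared between 2 brain regions, the bed nucleus of the stria terminalis, abbreviated BNST, and the prelimbic medial prefrontal cortex (mPFC), to see which genes changed alike in both regions and which changed differently. The comparison used 12 of the 18 libraries of the series, namely 3 CFA and 3 control libraries of the BNST and 3 CFA and 3 control libraries of the mPFC. They were taken by their treatment and region labels, and no measured value entered that choice. All mice were adult wild-type males of the C57BL/6 strain. CFA mice were killed 72 h after CFA was injected into a hind paw, while control mice received neither CFA nor formalin. The methods of the study describe these controls as not injected and its legends call them sham-treated, so what they received is not settled. If they had no injection, an effect of the adjuvant and an effect of the injection cannot be told apart. Polyadenylated RNA was read from whole dissected tissue, in which fewer cells of a type and less RNA per cell cannot be told apart. The other 6 libraries came from mice killed 24 h after formalin. They shared the fit and served as a description of where genes are expressed after formalin.

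CFA, mycobacteria in oil, inflames the paw for days and is a standard model of persistent pain. The BNST is a largely GABAergic limbic nucleus that lies next to the striatum and the ventricle, and it is known for its part in sustained anxiety and in the control of the stress axis. The prelimbic mPFC is cortex, most of whose neurons are glutamatergic pyramidal cells, and it is known for its part in pain affect and in top-down control. Glucocorticoids released under stress reach both regions, where their receptor acts as a transcription factor on palindromic DNA elements.

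Each comparison library held 14781315 to 21155401 counts. CPM stands for the counts of a gene scaled to the TMM-adjusted size of its library, and such levels are compared within a gene only. Slc17a7, the vesicular glutamate transporter of cortical pyramidal neurons, lay at 1500 to 1890 CPM in the mPFC and at 11.7 to 121 CPM in the BNST. Gad2, which makes GABA, lay at 432 to 767 CPM in the BNST and at 161 to 200 CPM in the mPFC. Both genes set the mPFC apart from the BNST. The 20 markers of the BNST and septum summed to 760 to 865 CPM in control BNST and 825 to 1200 CPM in CFA BNST. They summed to 625 to 669 CPM in control mPFC and 810 to 852 CPM in CFA mPFC, so the regions overlapped. CFA BNST replicate 2 stood apart. The 16 choroid plexus markers summed to 28700 CPM in this library, against 491 and 620 CPM in the other CFA BNST libraries and 302, 309 and 1530 CPM in the BNST controls. The 20 markers of striatal medium spiny neurons differed between the BNST groups as a whole, with 1080 to 1580 CPM in the CFA libraries and 3340 to 6820 CPM in the controls. In the mPFC the same markers summed to 940 to 956 CPM in CFA libraries and 876 to 906 CPM in controls. All libraries compared here were sequenced in lane 2 except BNST control replicates 1 and 2, which were in lane 1.

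**Figure D1:**
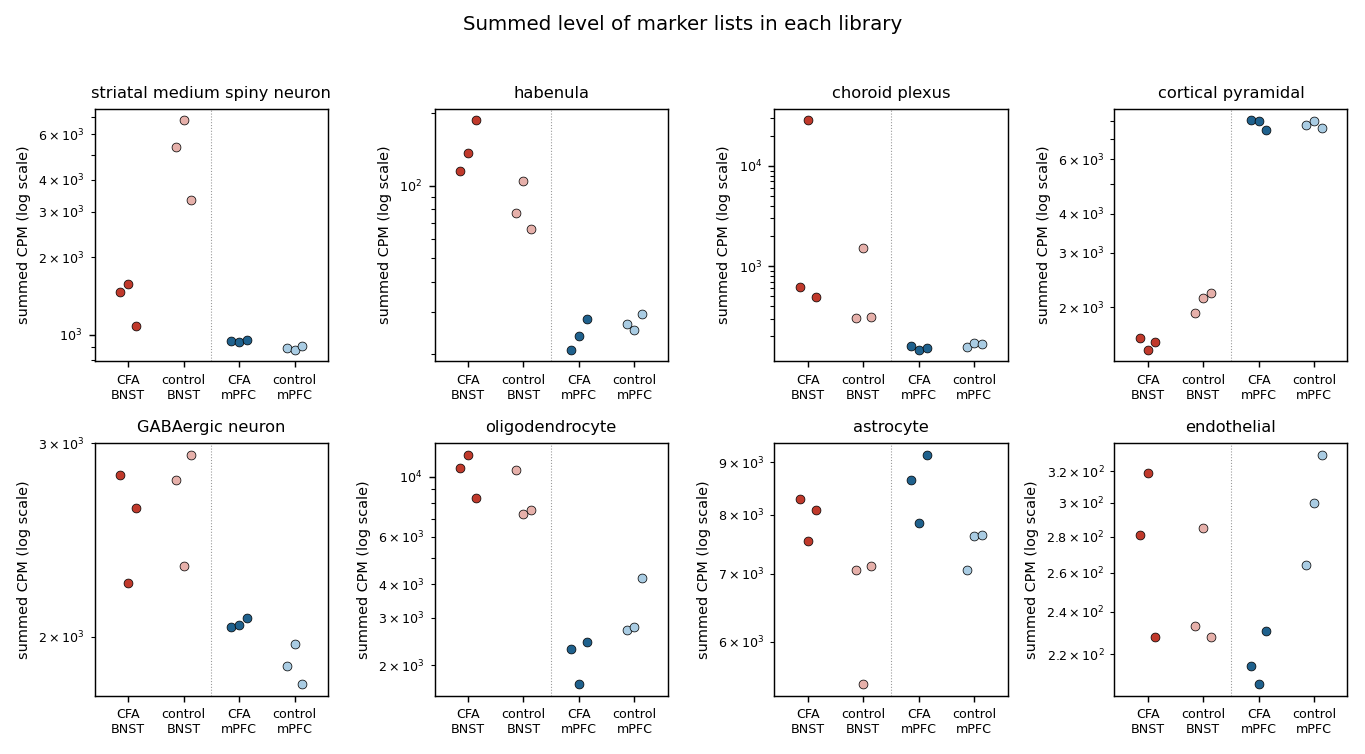
Summed CPM of 8 marker lists in each library (log scale), 1 point per library, for the 3 CFA and 3 control libraries of the BNST and of the mPFC. The striatal sum is lower in the 3 CFA BNST libraries (1080 to 1580 CPM) than in the 3 BNST controls (3340 to 6820 CPM), the habenular sum is higher, and 1 CFA BNST library holds 28700 CPM of choroid plexus markers.

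Of 18994 genes tested, 792 (4.17%) had a CFA change that differed between the regions. The change was higher in the BNST than in the mPFC for 218 of them and lower for 574. This difference is called the interaction here, that is the log2 fold change of CFA over control in the BNST minus the same in the mPFC. Passing required an absolute log2 value above 0.5 and, in edgeR's quasi-likelihood test, a p under 0.05 after Benjamini-Hochberg adjustment over all genes. By the same rule 2269 genes (11.9%) differed between CFA and control in the BNST, and 120 genes (0.632%) did so in the mPFC. CFA and control libraries did not overlap for 31.5% of all tested genes in the BNST and 25.6% in the mPFC. The interaction count was 1642 with the lane 2 libraries alone, where the BNST control group keeps 1 library that is assumed to vary like the others, and 612 of the 792 genes were among them. With the animal number as a block it was 456, and 388 of the 792 were among them. In that block BNST control replicate 1 and mPFC control replicate 2 had no partner from the same animal and so carried no weight. It also leaves fewer residual degrees of freedom, so a call lost under it need not reflect the pairing. Without CFA BNST replicate 2 the count was 747, whereas it fell to 497 without CFA mPFC replicate 1.

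Most interaction genes were called in the BNST alone, 485 of them lower there after CFA and 138 higher. Another 19 were called in the mPFC alone, and 147 in neither region, all of them with fitted changes of opposite sign in the regions. In the formalin libraries, which are on neither side of the interaction, the 574 genes with a lower interaction were on the whole less expressed in the BNST than in the mPFC. Their median difference there was −0.38 on the log2 scale, and 30% were higher in the BNST. The 218 genes with a higher interaction had a median of 0.41 with 69.3% higher in the BNST, beside a median of −0.01 and 49.5% over all tested genes. The formalin BNST libraries held 5730 to 15100 CPM of choroid plexus markers, against 302 to 1530 CPM in the BNST controls. Their region difference thus need not hold in control tissue.

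**Figure D2:**
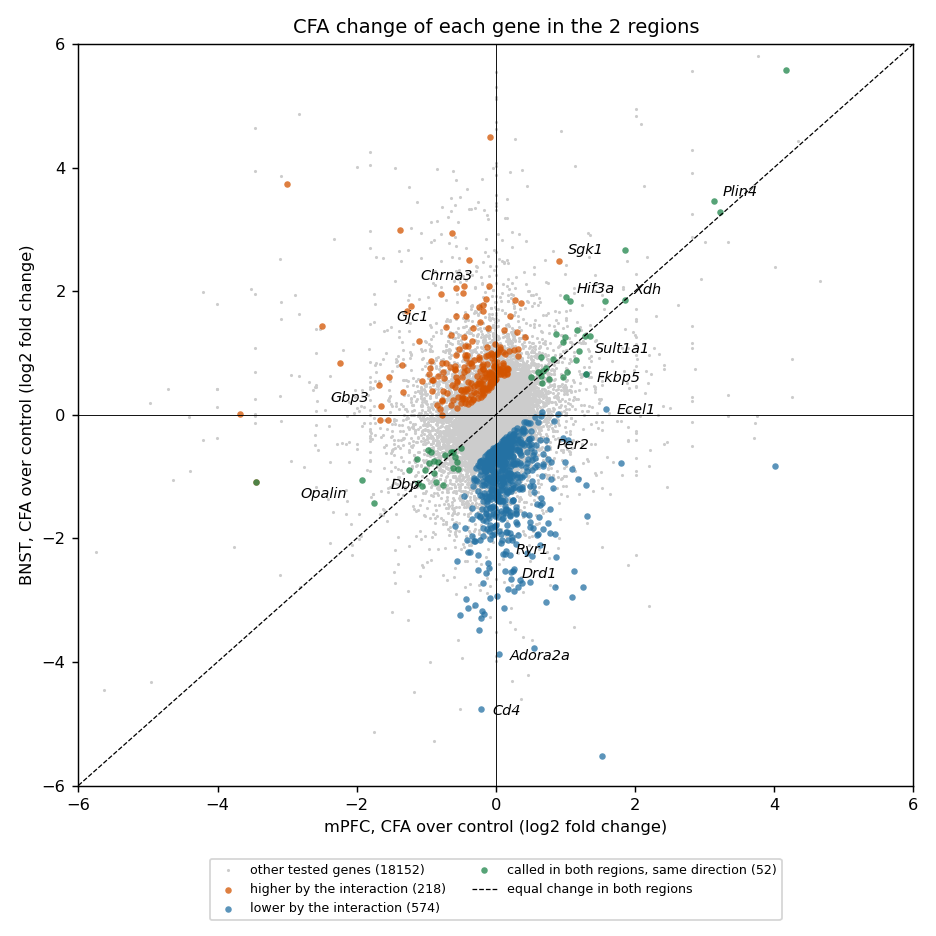
Log2 fold change of CFA over control in the BNST (vertical) against that in the mPFC (horizontal), 1 point per tested gene. Green points are the 52 genes called in both regions in 1 direction, most of them near the dashed line of equal change. Orange and blue points are the 218 and 574 genes with a higher and a lower interaction, and most of the blue ones fell in the BNST and lie near 0 on the mPFC axis. The axes end at 6 on either side and leave out 5 genes.

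A small set of genes responded alike. Called in both regions were 53 genes, 52 of them in 1 direction (0.274% of all tested genes), with 28 raised and 24 lowered by CFA. These 52 genes were 43.3% of the genes called in the mPFC and 2.29% of those called in the BNST. The remaining gene, the unnamed transcript Gm48063, went in opposite directions, at 0.788 to 0.993 CPM after CFA and 1.24 to 1.73 CPM in control BNST, and at 1.61 to 2.07 CPM after CFA and 0.788 to 1.04 CPM in control mPFC, although its mPFC call was lost without 10 of the 12 libraries (adjusted p up to 0.22). A change was taken as alike where it passed in both regions, the interaction did not pass and the 95% interval of the interaction lay within −1 to 1. This held for 37 genes, 18 raised and 19 lowered, while for 13 more the interval reached past that bound. The other 2, Fkbp5 and Rab7b, passed the interaction as well. Without CFA BNST replicate 2, 71 genes were called in both regions, 49 of the 52 among them, and with the lane 2 libraries 61 were, 40 of the 52 among them. Leaving out 1 mPFC library lowered the count to between 15 (without CFA replicate 1) and 30 (without CFA replicate 2). It was 24, 18 and 17 without mPFC control replicates 1, 2 and 3, and 22 without CFA mPFC replicate 3.

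Plin4, which encodes the lipid droplet coat protein perilipin 4 (chr17:56100591-56109803, GRCm38), had the largest common rise of the genes at 5 CPM or more outside the Fbxw family. It lay at 44.0, 76.1 and 35.6 CPM in CFA BNST and at 7.85, 2.32 and 4.02 CPM in control BNST. Its mPFC levels were 15.2, 18.3 and 16.9 CPM after CFA and 1.68, 1.93 and 2.13 CPM in controls. Every CFA library of a region was above every control of that region. The log2 fold changes were 3.46 in the BNST (SE 0.36, adjusted p = 1.9e-05) and 3.13 in the mPFC (SE 0.39, adjusted p = 0.0017), and the interaction was 0.33 with a 95% interval of −0.79 to 1.44. Sult1a1, a phenol sulfotransferase (chr7:126672865-126676432), rose nearly equally in the regions. It had 19.9, 22.2 and 20.4 CPM in CFA BNST against 8.96, 8.05 and 8.92 CPM in control BNST, and 13.2, 15.1 and 17.2 CPM in CFA mPFC against 5.88, 5.63 and 7.3 CPM in control mPFC. Its log2 fold changes of 1.27 and 1.28 differed by −0.01 (95% interval −0.42 to 0.41). Both genes passed in both regions without each of the 12 libraries in turn.

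Tsc22d3, the glucocorticoid-induced leucine zipper, lay at 128, 145 and 127 CPM in CFA BNST and at 82.3, 46.7 and 47 CPM in control BNST. In the mPFC its levels were 74.0, 83.7 and 73.1 CPM after CFA and 40.2, 41.6 and 36.4 CPM in controls. The groups did not overlap, although BNST control replicate 1 was higher than the other controls, and the log2 fold changes were 1.19 and 0.96 (adjusted p = 0.00025 and 0.018). Cdkn1a, which encodes the cell cycle inhibitor p21, rose by 1.84 in the BNST and 1.07 in the mPFC. Mfsd2a, the lysophospholipid transporter of the blood-brain barrier, rose by 0.88 and 1.15. Xdh, the xanthine dehydrogenase gene, rose by 1.86 in each region, with 3.38 to 8.43 CPM after CFA and 1.36 to 1.79 CPM in controls of the BNST, and 6.09 to 11.5 CPM after CFA and 2.0 to 2.57 CPM in controls of the mPFC. The mPFC calls of Tsc22d3 and Xdh were lost without any 1 of the 6 mPFC libraries (adjusted p up to 0.089 and 0.13), whereas those of Cdkn1a and Mfsd2a held. With the lane 2 libraries alone the BNST call of Mfsd2a was lost (adjusted p = 0.078).

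Other genes raised in both regions were Hif3a (1.91 and 1.01), an oxygen-regulated transcription factor, Spp1 (1.26 and 1.0), which encodes osteopontin, Heph (1.02 and 1.2), a copper ferroxidase, Map3k6 (1.31 and 0.86), a stress kinase, and the lipoxygenase gene Alox12b (1.38 and 1.16), which stayed under 1 CPM in the BNST, each as log2 fold change in the BNST and the mPFC. Fbxw23 (5.58 and 4.18) and Fbxw15 (1.84 and 1.57) belong to a cluster of near-identical F-box genes among which reads cannot always be told apart, so their values are uncertain. Gm19439 (2.67 and 1.86) and Gm44866 (1.28 and 1.36) are unnamed transcripts. Of these, the mPFC calls of Fbxw23 and Gm19439 passed without each library in turn, and the rest were lost without 3 to 7 of the 12 (adjusted p up to 0.18). The BNST call of Alox12b was lost without 3 libraries (adjusted p up to 0.096) and with the lane 2 libraries (adjusted p = 0.062).

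**Figure D3:**
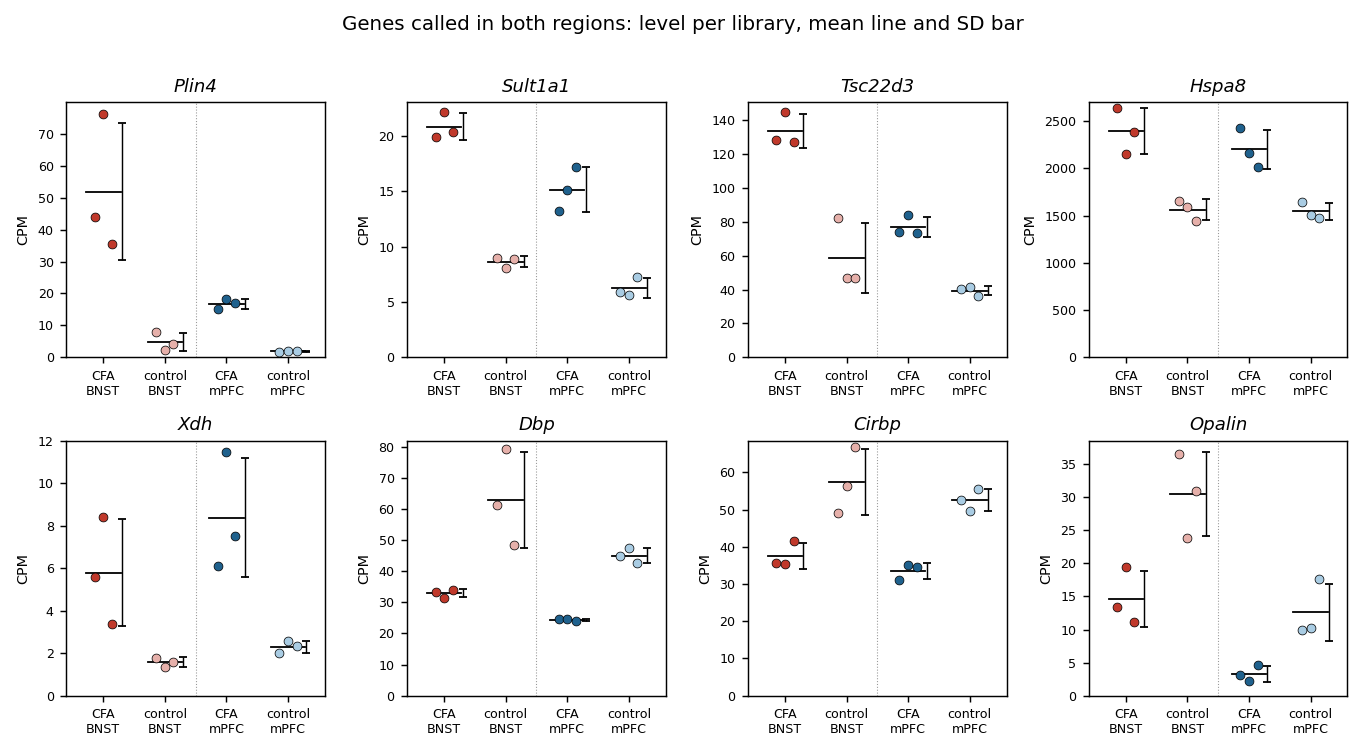
CPM per library of 8 genes called in both regions, with the group mean (line) and SD (bar), n = 3 libraries a group. Plin4, Sult1a1, Tsc22d3, Hspa8 and Xdh are higher in CFA than in control libraries of each region, and Dbp, Cirbp and Opalin are lower.

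Dbp, a transcription factor that follows the circadian clock (chr7:45705088-45710203), was the lowered gene named here whose calls in both regions held without each library in turn. It had 33.2, 31.4 and 33.9 CPM in CFA BNST and 61.2, 79.1 and 48.3 CPM in control BNST. In CFA mPFC it had 24.5, 24.5 and 24.1 CPM, with 44.7, 47.4 and 42.6 CPM in control mPFC. It fell by 0.94 on the log2 scale in the BNST and by 0.88 in the mPFC (adjusted p = 7.6e-05 and 0.0031), the interaction was −0.06 (95% interval −0.44 to 0.32). Cirbp, which encodes a cold-inducible RNA-binding protein, lay at 35.7, 35.5 and 41.6 CPM in CFA BNST against 49.2, 56.3 and 66.7 CPM in control BNST. Its mPFC levels were 31.1, 35.1 and 34.6 CPM after CFA against 52.6, 49.6 and 55.4 CPM in controls. It fell by 0.61 and 0.65, and the interval of the interaction ran from −0.27 to 0.34. Its BNST call was lost without BNST control replicate 3 and its mPFC call without CFA mPFC replicate 1 (adjusted p = 0.053).

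Pdgfrb was the only one of 15 mural and fibroblast genes, and Opalin the only one of 15 oligodendrocyte genes, called lower in both regions. Pdgfrb, the platelet-derived growth factor receptor of pericytes, fell by 0.60 in the BNST and 0.62 in the mPFC, and Itga1, a collagen-binding integrin subunit, fell by 0.89 and 1.02. Atp13a5, a P-type ATPase gene, fell by 1.08 and 0.85. The mPFC calls of these 3 genes were lost without 5 or 6 of the 12 libraries (adjusted p up to 0.20). Opalin, an oligodendrocyte membrane protein, had 13.4, 19.4 and 11.2 CPM in CFA BNST and 36.5, 23.9 and 31.0 CPM in control BNST, and 3.07, 2.18 and 4.63 CPM in CFA mPFC and 9.93, 10.3 and 17.6 CPM in control mPFC. It fell by 1.06 and 1.93, without overlap, but each call was lost without 3 of the 12 libraries (adjusted p up to 0.059 and 0.089), and the BNST call with the lane 2 libraries (adjusted p = 0.078). The remaining named genes were Pla2g4e, a phospholipase (−0.90 and −1.24), Gamt, of creatine synthesis (−0.77 and −0.83), Plppr1 (−1.14 and −0.75), Igsf9 (−0.74 and −0.89), Eda (−0.66 and −0.72), Cd276 (−0.86 and −0.61), Fam71e1 (−0.72 and −1.13), 9630013A20Rik (−1.43 and −1.75) and 1700047M11Rik (−0.79 and −0.96). Of these only Pla2g4e kept its mPFC call without each library, and its BNST call was lost without BNST control replicate 2 (adjusted p = 0.052). The others lost it without 4 to 9 of them (adjusted p up to 0.23). The BNST call of Fam71e1 was lost without 2 libraries (adjusted p up to 0.13), and those of Gamt, Igsf9, 9630013A20Rik and 1700047M11Rik with the lane 2 libraries (adjusted p = 0.098, 0.11, 0.059 and 0.064). For Pdgfrb the BNST change without CFA BNST replicate 2 was −0.45, under the fold minimum.

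Glucocorticoid-responsive genes were called higher, and never lower, in both regions. Of the 25 tested, 16 were called higher after CFA in the BNST (4.89% of all tested genes were) and 7 in the mPFC (0.337% of all). Members of this and the other lists were chosen with earlier results of these data known, so such counts describe the lists and test nothing. The 7 genes, Plin4, Sult1a1, Hif3a, Cdkn1a, Tsc22d3, Map3k6 and Fkbp5, were all called higher in the BNST too. The median change of the list was 0.70 in the BNST and 0.39 in the mPFC, beside 0.01 and 0.00 over all tested genes. The counts were 14 and 9 without CFA BNST replicate 2, and 14 and 7 with the lane 2 libraries, where 1 gene in each region was called lower. Nfkbia, of the same list, the inhibitor of NF-kB, lay at 25.3, 35.7 and 19.4 CPM in CFA BNST and at 12.1, 12.2 and 11.9 CPM in control BNST (1.15, adjusted p = 9.6e-05). In the mPFC it lay at 14.4, 16.5 and 16.5 CPM after CFA and 9.72, 9.38 and 9.92 CPM in controls, without overlap, but the change of 0.70 missed the threshold (adjusted p = 0.051).

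Sgk1 and Fkbp5 were the members of this list whose change depended on the region, and they did so in opposite ways. Sgk1, the serum- and glucocorticoid-regulated kinase, had 241, 461 and 211 CPM in CFA BNST and 60.3, 60.2 and 42.9 CPM in control BNST. Its mPFC levels were 101, 97.3 and 103 CPM after CFA and 50.5, 52.4 and 58.1 CPM in controls. CFA libraries were above controls in both regions, the mPFC change of 0.90 missed the threshold (adjusted p = 0.091), and the interaction was 1.58 (SE 0.33, adjusted p = 0.012, but 0.089 with the animal block). Fkbp5, which encodes a co-chaperone of the glucocorticoid receptor, lay at 46.7, 52.6 and 47.2 CPM in CFA BNST and at 31.3, 29.0 and 32.9 CPM in control BNST. In the mPFC it lay at 43.7, 53.6 and 42.6 CPM after CFA and at 18.5, 18.3 and 20.1 CPM in controls. It rose by 0.65 in the BNST and by 1.3 in the mPFC, an interaction of −0.65 (SE 0.17, adjusted p = 0.042) that was lost without 9 of the 12 libraries (adjusted p up to 0.12), with the replicate block (adjusted p = 0.056) and with the animal block (adjusted p = 0.065).

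The promoters of these genes were read for the palindrome made of GNACA, any 3 bases and TGTNC, a relaxed form of the element that the glucocorticoid receptor binds, in the 250 bases before the annotated start (RefSeq, GRCm38.p6). The palindrome reads the same on both strands. Of the 28 genes called higher in both regions 20 had a promoter in the table, and 2 of them (10%) held it, Map3k6 and Fam107a. Of all tested genes with a promoter 0.343% did (44 of 12832). None of 19 lowered genes held it, nor did any of 381 with a lower interaction, while 2 of 162 with a higher interaction did, Sgk1 and Scd3. A match is a description of letters and no evidence of binding. The windows of these 2 genes and of Sgk1 are printed to show the element in its setting, 5′ to 3′ on the strand of the gene, with the palindrome in capitals, starting 181, 118 and 188 bases before the start.
Map3k6 (chr4:133240613-133240673, plus strand): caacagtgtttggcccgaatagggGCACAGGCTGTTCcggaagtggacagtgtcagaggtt
Fam107a (chr14:8309861-8309921, minus strand): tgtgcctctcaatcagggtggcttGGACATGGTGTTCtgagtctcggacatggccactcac
Sgk1 (chr10:21993678-21993738, plus strand): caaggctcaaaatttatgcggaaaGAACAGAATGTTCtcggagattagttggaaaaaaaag

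Fam107a, an actin-associated stress-response gene chosen here after its values were seen, had 724, 648 and 740 CPM in CFA BNST and 652, 300 and 432 CPM in control BNST, where BNST control replicate 1 overlapped the CFA range. Its mPFC levels were 733, 596 and 733 CPM after CFA and 341, 321 and 395 CPM in controls, without overlap. Its log2 fold changes were 0.61 and 0.96. Scd3, a fatty acid desaturase gene chosen here after its values were seen, lay at 12.2, 8.87 and 11.7 CPM in CFA BNST and at 3.58, 4.93 and 4.09 CPM in control BNST, whereas the mPFC groups overlapped at 4.63 to 6.44 CPM after CFA and 4.74 to 4.94 CPM in controls (interaction 1.26, adjusted p = 0.0084).

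Heat shock genes were called higher mainly in the BNST. Of 14 tested, 10 rose in the BNST (4.89% of all tested genes did) and 1, Hspa8, rose in the mPFC (0.337% of all). None passed the interaction. The medians were 0.70 and 0.37. Hspa8, the constitutive chaperone Hsc70, had 2640, 2150 and 2390 CPM in CFA BNST against 1660, 1590 and 1440 CPM in control BNST, and 2430, 2160 and 2020 CPM in CFA mPFC against 1650, 1510 and 1480 CPM in control mPFC. Its changes of 0.61 and 0.51 differed by 0.10 (95% interval −0.18 to 0.39), and the mPFC call was lost without 4 of the 12 libraries (adjusted p up to 0.13). Dnajb1, an Hsp40 co-chaperone, rose by 0.78 in the BNST, while its mPFC value of 0.44 was under the fold minimum.

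Genes of striatal medium spiny neurons were lower after CFA in the BNST. All 20 tested were lower after CFA in the BNST (7.06% of all tested genes were), and 17 had a lower interaction (3.02% of all). None was called in the mPFC, where 0.632% of all were. The list's median change was −2.05 in the BNST and 0.13 in the mPFC. With the lane 2 libraries 18 and 15 passed, and without CFA BNST replicate 2 the counts were 20 and 18. Pde10a, the phosphodiesterase of these neurons (chr17:8525372-8986648), lay at 117, 110 and 90.6 CPM in CFA BNST and at 651, 1020 and 369 CPM in control BNST. In the mPFC it lay at 113, 123 and 118 CPM after CFA and at 90.0, 81.2 and 106 CPM in controls, a small difference the other way without overlap. It fell by 2.68 in the BNST, missed the threshold in the mPFC (0.35, adjusted p = 0.63), and had an interaction of −3.03 (SE 0.38, adjusted p = 0.00043).

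Adora2a and Drd1, receptors for adenosine and dopamine, also fell in the BNST. Adora2a had 11.5, 15.3 and 3.05 CPM in CFA BNST and 145, 212 and 78.7 CPM in control BNST, while all 6 mPFC libraries lay between 2.36 and 3.09 CPM. Its interaction was −3.92 (SE 0.77, adjusted p = 0.011). Drd1 had 21.1, 23.2 and 9.16 CPM in CFA BNST and 101, 143 and 68.3 CPM in control BNST. Its mPFC levels were 15.2, 16.7 and 19.9 CPM after CFA and 15.2, 13.5 and 15.8 CPM in controls, with an interaction of −2.77 (SE 0.44, adjusted p = 0.0025). Under the animal block these interactions missed the threshold (adjusted p = 0.076 and 0.078), whereas that of Pde10a passed. Drd2 (−2.38), Penk (−2.0), which encodes enkephalin, Tac1 (−2.10), which encodes substance P, Gpr6 (−3.10), an orphan receptor, and Rgs9 (−2.87), a regulator of G protein signalling, passed the interaction too. The call of Drd2 was lost without 4 of the 12 libraries (adjusted p up to 0.093), with the lane 2 libraries (adjusted p = 0.082) and under the animal block (adjusted p = 0.24), as were those of Gpr6, Rgs9 and Penk under that block (adjusted p = 0.072, 0.081 and 0.052).

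Several of the lowest interactions belonged to genes outside that list. Cd4, a T cell co-receptor, lay at 0.773, 1.28 and 0.376 CPM in CFA BNST and at 21.3, 34 and 11 CPM in control BNST, with 0.650 to 1.09 CPM in the mPFC libraries and an interaction of −4.56. Lrrc10b (−3.18), Epyc (−3.10), an extracellular proteoglycan, Ptprv (−3.06), a tyrosine phosphatase, Tmem200b (−2.95), Gm49702 (−3.19) and Gm12992 (−2.98) followed. Serpina9 (−4.03), a serine protease inhibitor gene, was on the striatal list. Of these, Serpina9 lost its call without CFA mPFC replicate 3 (adjusted p = 0.059), Ptprv without CFA mPFC replicate 2 or 3 (adjusted p up to 0.11) and Tmem200b without 6 libraries (adjusted p up to 0.10) and with the lane 2 libraries (adjusted p = 0.26). Under the animal block Serpina9, Lrrc10b, Epyc and Ptprv missed the threshold (adjusted p = 0.094, 0.087, 0.073 and 0.061). Of 15 genes of dividing cells 2 had a lower interaction (3.02% of all tested genes did), Mki67 (−2.73) and Mcm5 (−1.08). The median interaction of that list was −0.33. Its sums overlapped, at 57.2 to 72.4 CPM in CFA BNST and 61.7 to 89.3 CPM in control BNST. Mki67 lay at 1.21, 0.838 and 0.892 CPM in CFA BNST and at 9.89, 6.18 and 11.9 CPM in control BNST, whereas the mPFC libraries overlapped at 1.54 to 3.54 CPM after CFA and 1.73 to 5.83 CPM in controls. The striatal marker sum moved with these changes in the BNST groups, and its part in them was not tested.

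Some ion channel genes were lower in the BNST. None of those tested was called in the mPFC, where 0.632% of all tested genes were. A list of this size without an mPFC call is thus near the share over all genes. Of 33 sodium and potassium channel genes 12 were lower after CFA in the BNST (7.06% of all tested genes were), and 13 had a lower interaction (3.02% of all). Of 25 calcium channel, pump and release genes 11 were lower in the BNST and 5 had a lower interaction. Ryr1, the ryanodine receptor that releases calcium from internal stores (chr7:29003344-29125179), lay at 11.5, 11.3 and 9.91 CPM in CFA BNST and at 52.2, 66.2 and 38.3 CPM in control BNST. Its mPFC levels of 48.0, 52.1 and 45.0 CPM after CFA and 43.6, 43.4 and 45.3 CPM in controls overlapped. The interaction was −2.39 (SE 0.23, adjusted p = 2.6e-05). Kcnh4, a voltage-gated potassium channel gene, had 3.31, 2.81 and 2.72 CPM in CFA BNST and 18.8, 24.2 and 15 CPM in control BNST, beside 18.3 to 20.4 CPM after CFA and 20.2 to 23.6 CPM in controls of the mPFC (interaction −2.54). Ryr1 and Kcnh4 were less expressed in the BNST than in the mPFC of formalin mice, by −0.54 and −0.83 on the log2 scale. In control mice the libraries of the regions overlapped for both genes.

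Cacna1h, which encodes the T-type calcium channel Cav3.2, had 54.6, 41.6 and 52.3 CPM in CFA BNST against 108, 98.0 and 83.6 CPM in control BNST, without overlap. In CFA mPFC it had 104, 134 and 135 CPM against 105, 93.6 and 101 CPM in control mPFC, where 1 CFA library fell within the control range. Its interaction was −1.28 (SE 0.16, adjusted p = 0.00016). Kcnip2 (−1.36), a subunit of A-type potassium channels, Kcnq5 (−1.25), of the M current, and Cacnb1 (−0.87), a calcium channel subunit, passed as well, and all 6 genes of these lists named here passed without each library in turn, with the lane 2 libraries and under the animal block. With the lane 2 libraries, 11 sodium and potassium and 8 calcium genes had a lower interaction, beside 3 and 1 with a higher one, 13 and 9 were lower and 5 and 2 higher in the BNST, and without CFA BNST replicate 2 the counts of lower interactions were 12 and 5.

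Of 20 immediate early genes, which neurons switch on after firing, 7 fell in the BNST (7.06% of all tested genes did) and 1 fell in the mPFC (Ccn1, by 0.98, beside 0.295% of all), and 4 had a lower interaction (3.02% of all). The sum of the 22 cortical pyramidal markers was lower in CFA BNST, at 1590, 1460 and 1550 CPM. In control BNST it was 1910, 2150 and 2220 CPM. The median BNST change of these markers was −0.01, with 1 called higher and 4 lower, so they did not fall as a set. The striatal sum was lower too. The part of both sums in the changes of the immediate early genes and of the receptor genes that follow was not tested. Egr3, an immediate early transcription factor, lay at 21.6, 28.5 and 25.4 CPM in CFA BNST and at 80.2, 90.3 and 111 CPM in control BNST. Its mPFC levels overlapped, at 285, 255 and 266 CPM after CFA and 222, 264 and 234 CPM in controls, and the interaction was −2.06 (SE 0.22, adjusted p = 5.6e-05). Homer1, a scaffold of glutamate receptors, had 75.7, 90.8 and 55.3 CPM in CFA BNST and 152, 163 and 125 CPM in control BNST. In the mPFC it had 415, 329 and 353 CPM after CFA and 241, 240 and 211 CPM in controls. CFA libraries thus lay below the controls in the BNST and above them in the mPFC. The mPFC change of 0.66 missed the threshold (adjusted p = 0.078), and the interaction was −1.65 (SE 0.24, adjusted p = 0.00067). Egr1 (−1.24) and Egr4 (−1.35) passed with less margin, any 1 of 6 and 11 libraries left out ending the call (adjusted p up to 0.058 and 0.098). With the lane 2 libraries 7 of these genes had a lower interaction.

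Grm5, the metabotropic glutamate receptor 5, had 214, 191 and 198 CPM in CFA BNST and 383, 331 and 560 CPM in control BNST, whereas its mPFC libraries overlapped at 267 to 296 CPM after CFA and 268 to 290 CPM in controls (interaction −1.11, adjusted p = 0.0039). Of 26 glutamate receptor genes 9 were lower in the BNST (7.06% of all tested genes were) and none was called in the mPFC (0.632% of all). A lower interaction was found for 6 (3.02% of all), a count that was 3 without CFA BNST replicate 2. Of 14 opioid and cannabinoid genes 5 were lower and 1 higher in the BNST, and 4 had a lower interaction. With the lane 2 libraries 3 were lower in the BNST. Cnr1, the cannabinoid receptor 1 gene, lay at 106, 100 and 125 CPM in CFA BNST and at 210, 261 and 184 CPM in control BNST, with 329 to 348 CPM after CFA and 274 to 299 CPM in controls of the mPFC (interaction −1.22). Oprd1, the delta opioid receptor gene, had 6.29, 7.19 and 7.47 CPM in CFA BNST and 18.6, 22.5 and 8.85 CPM in control BNST, and 47.3 to 59.7 CPM after CFA and 31.7 to 39.7 CPM in controls of the mPFC (interaction −1.81). Its BNST change with the lane 2 libraries was −0.35 and did not pass (adjusted p = 0.23), while the interaction did. Pdyn, which encodes dynorphin, had an interaction of −1.41 that was lost without 7 libraries (adjusted p up to 0.066) and under the animal block (adjusted p = 0.055), and the fourth gene was Penk.

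**Figure D4:**
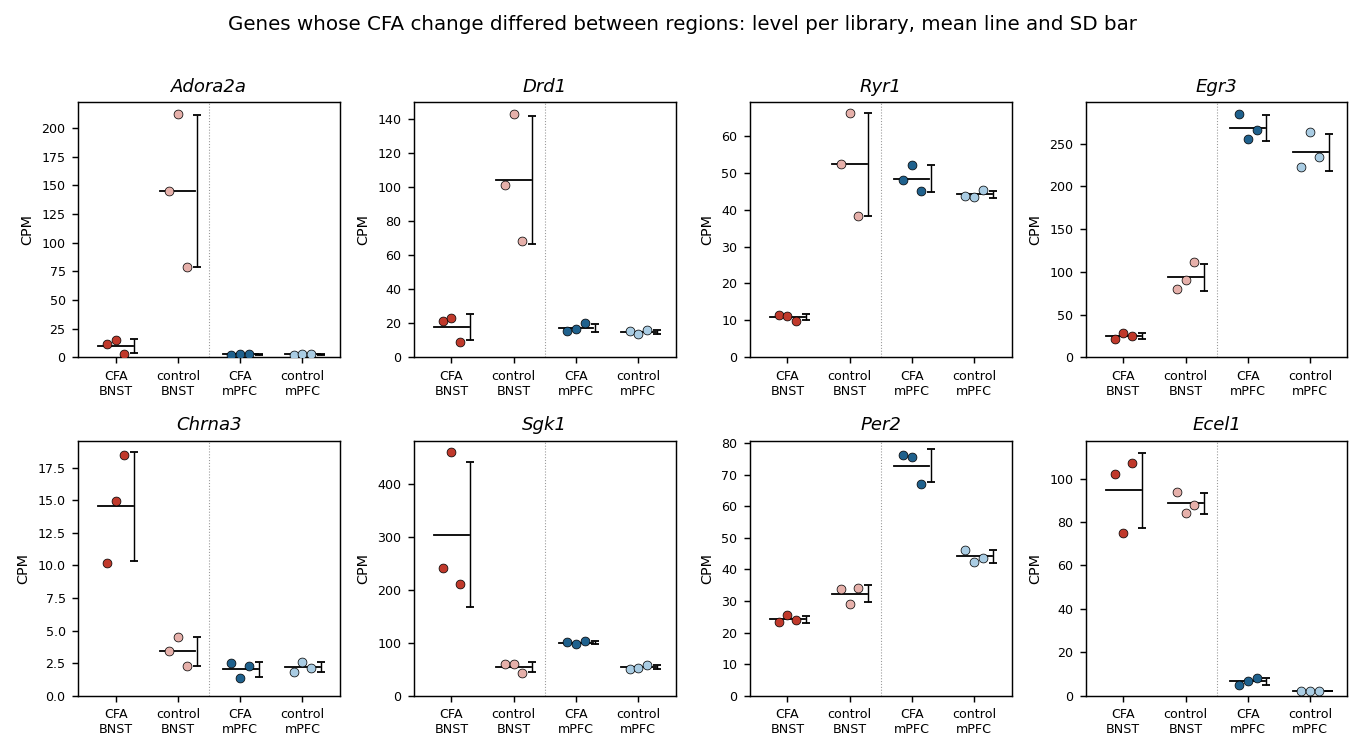
CPM per library of 8 genes whose CFA change differed between the regions, with the group mean (line) and SD (bar), n = 3 libraries a group. Adora2a, Drd1, Ryr1 and Egr3 are lower after CFA in the BNST with overlapping groups in the mPFC, Chrna3 and Sgk1 are higher after CFA in the BNST, and Per2 and Ecel1 are higher after CFA in the mPFC.

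Among the genes with a higher interaction, Rnf152, a ubiquitin ligase gene (chr1:105276914-105356710), lay at 53.9, 67.4 and 55.9 CPM in CFA BNST and at 25.7, 30.5 and 18 CPM in control BNST. In the mPFC it lay at 20.2, 25.3 and 19.4 CPM after CFA and at 34.8, 30.3 and 23.7 CPM in controls. The groups overlapped in the mPFC only. It rose by 1.25 in the BNST, while the mPFC value of −0.45 missed the threshold (adjusted p = 0.29), and its interaction was 1.71 (SE 0.26, adjusted p = 0.0013). Chrna3, the nicotinic receptor subunit alpha 3, had 10.2, 14.9 and 18.5 CPM in CFA BNST against 3.40, 4.54 and 2.29 CPM in control BNST, and overlapped in the mPFC at 1.39 to 2.48 CPM after CFA and 1.84 to 2.62 CPM in controls. Its interaction was 2.19 (SE 0.42, adjusted p = 0.0052, but 0.06 under the animal block). Chrna3 is one of 11 habenular markers, 6 of which rose in the BNST (4.89% of all tested genes did). It was the 1 marker of that list with a higher interaction (1.15% of all). Those markers summed to 115, 137 and 187 CPM in CFA BNST and 76.7, 105 and 65.9 CPM in control BNST. Of 12 thalamus markers 1 rose in the BNST. Their sums overlapped, at 1890, 1380 and 2100 CPM in CFA BNST and 1170, 1470 and 916 CPM in control BNST. The median BNST change of the thalamus list was 0.58, and 2.3 with the lane 2 libraries. The part of either list in these changes was not tested.

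Gjc1 (2.13), which encodes connexin 45, Nwd2 (2.01), Tex15 (1.74), Mtfr1 (1.72), a regulator of mitochondrial fission, Kcng4 (1.86), a modifier of potassium channels, and Ankrd34c (1.60) passed too, and each rose in the BNST. Tex15 was the most even of them, with 8.94, 9.85 and 10.8 CPM in CFA BNST and 4.08, 4.03 and 3.03 CPM in control BNST, beside 0.579 to 0.926 CPM after CFA and 0.988 to 1.04 CPM in controls of the mPFC. Gjc1, Nwd2 and Mtfr1 missed the threshold under the animal block (adjusted p = 0.095, 0.14 and 0.052), and Kcng4 without any 1 of 3 mPFC libraries (adjusted p up to 0.071). Dnaaf3 (2.16), Chdh (2.02), a choline dehydrogenase gene, Sh3d19 (1.93) and Plpp2 (1.62), a lipid phosphatase gene, were less firm, since leaving out any 1 of 8, 9, 8 and 4 libraries ended the call (adjusted p up to 0.12). Chdh and Sh3d19 were highest in CFA BNST replicate 2, at 39.8 and 141 CPM, against 12.1 to 12.4 and 55.8 to 57.5 CPM in the other CFA BNST libraries. Cav2, which encodes caveolin 2, had a log2 fold change of 0.44 in the BNST, under the fold minimum, and of −0.37 in the mPFC (adjusted p = 0.086), with an interaction of 0.81 (adjusted p = 0.0022).

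A further set was called in the mPFC and not in the BNST. Per2, a core repressor of the circadian clock (chr1:91415982-91459324), had 23.3, 25.4 and 24.0 CPM in CFA BNST and 33.9, 29.1 and 34 CPM in control BNST. In CFA mPFC it had 76.1, 75.5 and 66.9 CPM, with 46.2, 42.4 and 43.7 CPM in control mPFC. It rose by 0.72 in the mPFC (adjusted p = 0.0007), its BNST value of −0.41 had an adjusted p of 0.0031 but was under the fold minimum, and the interaction was −1.14 (SE 0.12, adjusted p = 5.2e-05). Rhbdl3, a rhomboid-like gene, lay at 25.5, 23.3 and 25.2 CPM in CFA BNST against 32.1, 28.3 and 38.2 CPM in control BNST, and at 30.9, 39.0 and 41.9 CPM in CFA mPFC against 19.1, 14.4 and 21 CPM in control mPFC. Like Per2, it did not overlap between the groups of either region, and the direction was opposite in the regions (interaction −1.45, SE 0.19, adjusted p = 0.00019). Lyst, a lysosomal trafficking regulator, had 61.5 to 70.6 CPM after CFA and 84.7 to 91.7 CPM in controls of the BNST, and 103 to 133 CPM after CFA and 71.1 to 83.0 CPM in controls of the mPFC (interaction −1.05). These 3 interactions passed without each library in turn, with the lane 2 libraries and under the animal block.

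Ecel1, a neuronal endopeptidase gene, rose by 1.58 in the mPFC, with 4.90, 6.75 and 8.11 CPM after CFA and 2.21, 2.12 and 2.23 CPM in controls. Its BNST libraries overlapped at 74.8 to 107 CPM after CFA and 84.2 to 93.8 CPM in controls, and the interaction was −1.49 (adjusted p = 0.0038, but 0.053 under the animal block). Trib2, a pseudokinase gene (interaction −0.93), and Fst (−1.33), which encodes the activin antagonist follistatin, rose in the mPFC too, as did Mettl11b (−2.58), which lay at 2.32 CPM or less. In the other direction, Gbp3, an interferon-induced GTPase, lay at 1.06, 0.595 and 1.67 CPM in CFA mPFC and at 3.20, 3.80 and 3.54 CPM in control mPFC. Its BNST libraries overlapped at 2.21 to 3.20 CPM after CFA and 2.10 to 2.95 CPM in controls (interaction 1.80). Prr5l (0.90), a partner of the mTOR complex, Bace2 (1.46), a protease related to beta-secretase, Serpinb1a (1.59), an elastase inhibitor, and Col24a1 (1.70), a collagen gene, fell in the mPFC as well. Leaving out any 1 of 7, 9 and 8 libraries ended the interaction calls of Bace2, Serpinb1a and Col24a1 (adjusted p up to 0.09, 0.10 and 0.081), and that of Fst without CFA mPFC replicate 2 (adjusted p = 0.056). The mPFC calls themselves were lost for Fst without 8 libraries, for Mettl11b and Col24a1 without 6, for Serpinb1a without 5, for Bace2 without 3 and for Gbp3 without 1 (adjusted p up to 0.19). Under the animal block, of these genes only Trib2 and Prr5l passed. Rab7b, named after its values were seen and called lower in both regions, stayed at or under 1.23 CPM after CFA and 1.98 CPM in controls (interaction 2.36).

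Clock genes differed in where they were called. Of 17 tested, Dbp was lower in both regions, Npas2 and Per3 fell in the BNST with interactions of −0.68 and −0.59, Nfil3 rose in the BNST, and Per2 rose in the mPFC. The other 12 were called in neither region. In the BNST 3 were lower and 1 higher (7.06% and 4.89% of all tested genes were). In the mPFC 1 was lower and 1 higher (0.295% and 0.337% of all), and 3 had a lower interaction (3.02% of all). The list's median change was −0.09 in the BNST and −0.03 in the mPFC. For Npas2 the BNST change with the lane 2 libraries was −0.48, under the fold minimum. The interaction of Per3 was lost without 8 of the 12 libraries (adjusted p up to 0.11) and with the replicate block (adjusted p = 0.058).

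Oligodendrocyte genes were called lower mainly in the mPFC. Of 15 tested, 4 fell in the mPFC (0.295% of all tested genes did), among them Opalin, Mog and Ugt8a, and 1 fell and 1 rose in the BNST, with medians of −0.04 in the BNST and −0.73 in the mPFC. Ermn (1.21), Bcas1 (1.10) and Ugt8a (0.78) passed the interaction, but none of the 3 did without CFA BNST replicate 2 (adjusted p = 0.067, 0.085 and 0.086). The summed markers were at 1700 to 2440 CPM in CFA mPFC and 2700 to 4220 CPM in control mPFC. Endothelial markers moved beside them, at 207 to 231 CPM in CFA mPFC and 264 to 331 CPM in control mPFC.

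Of 23 interferon and antigen presentation genes 6 rose in the BNST (4.89% of all tested genes did) and 1, Gbp3, fell in the mPFC. The 6 became 2 without CFA BNST replicate 2, where 1 gene in place of 3 had a higher interaction (1.15% of all did), and 2 with the lane 2 libraries. The list summed to 228, 333 and 194 CPM in CFA BNST, highest in replicate 2, and 167 to 170 CPM in control BNST. Besides Gbp3, Oasl2 (2.15), a 2-5 oligoadenylate synthetase-like gene, and Ifit3 (1.3) had a higher interaction, and they were called in neither region. Oasl2 lay at 6.13, 3.35 and 2.44 CPM in CFA BNST and 1.24, 2.78 and 2.79 CPM in control BNST, which overlap, and at 1.42, 0.595 and 1.35 CPM in CFA mPFC and 2.52, 1.53 and 4.63 CPM in control mPFC. Leaving out any 1 of 10 and 8 libraries ended the calls of Oasl2 and Ifit3 (adjusted p up to 0.14 and 0.13). Of 16 astrocyte genes 5 rose in the BNST, and of 19 inflammatory genes 4 rose (beside the same 4.89% of all) and 1 fell there. No gene of either list was called in the mPFC, where 0.632% of all were. Without CFA BNST replicate 2 the inflammatory counts were 2 higher and 1 lower in the BNST and 1 higher in the mPFC, and with the lane 2 libraries 1 was also higher in the mPFC.

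**Figure D5:**
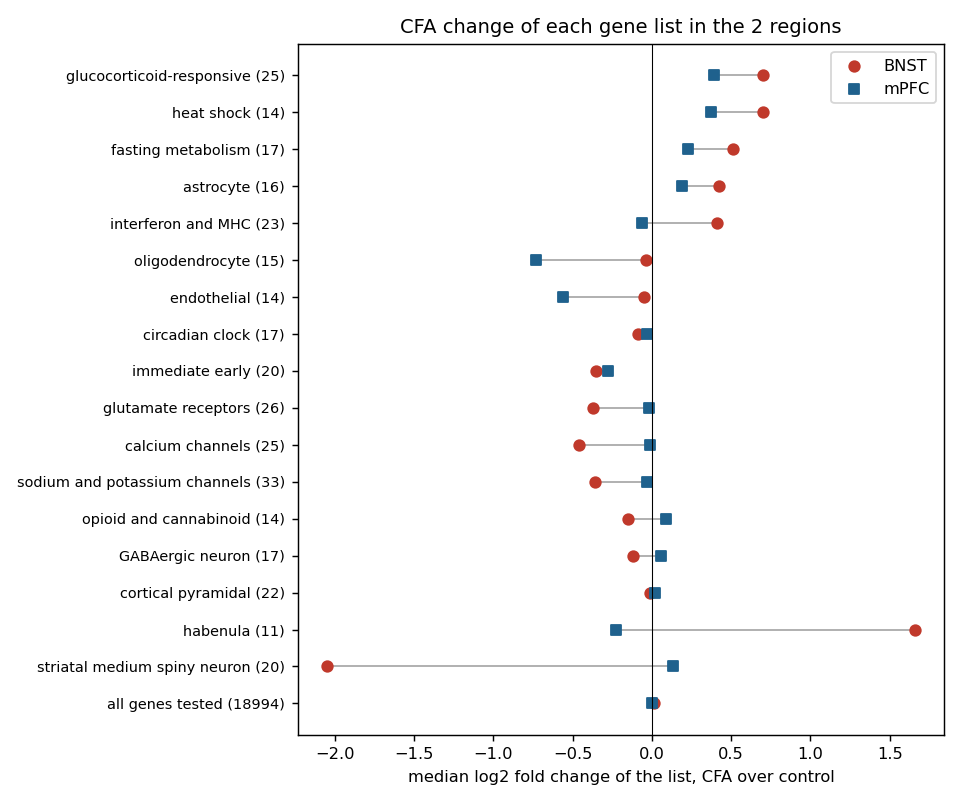
Median log2 fold change of CFA over control of 17 gene lists and of all tested genes, with the number of genes tested in brackets. Circles are the BNST and squares the mPFC. Glucocorticoid-responsive (0.70 and 0.39) and heat shock genes (0.70 and 0.37) lie to the right in both regions, striatal genes lie at −2.05 in the BNST and 0.13 in the mPFC, and oligodendrocyte genes at −0.04 and −0.73.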

How the data were processed

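Polyadenylated RNA of both regions was sequenced with 3 libraries in each group. Per the methods and the submitters' notes, trimming was by Trimmomatic 0.39, alignment to GRCm38 by HISAT2 2.2.1 and counting of reads in genes by featureCounts 2.0.1, all run by the authors. The strand setting is not given in the sources used here. The deposited table holds raw whole-number counts of 55401 gene identifiers, of which 260 had no symbol in the GENCODE M21 names. Replicates are labelled as separate samples, and p-values measure the spread between them.

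The analysis used edgeR 4.0.16 under R 4.3.3 (TMM, filterByExpr at minimum count 10 and total 15, robust quasi-likelihood fit of all 18 libraries, 12 residual degrees of freedom), which left 18994 genes holding 99.88% of the counts. Standard errors were derived from the F statistic, or from p where edgeR's Poisson bound raised it. Contrasts were CFA minus control in each region and the difference of both. The fit was also run on counts simulated from its own means and spread, with interactions of known size planted. Those counts held no lane effect, outlying library or shared animal, so that run cannot judge the effect of these. Named genes were the 12 highest and 12 lowest interactions at 5 CPM or more without overlap in at least 1 region, the 15 raised and 15 lowered genes called in both regions, those called in opposite directions, 12 called in the mPFC alone, up to 5 of each of 38 lists, and genes the paper names; others are marked as chosen after their values were seen, apart from region markers and list members named to complete a count. Members and lists were chosen with earlier results of these data known. Alternatives were DESeq2 1.42.0, limma-voom (limma 3.58.1), glmTreat, no minimum fold, RLE, no filter or a stricter one (a total of 200 counts, and at least 1 CPM in all libraries of some group), the 12 libraries alone, lane 2 libraries, blocks by replicate or animal number, and leaving out each library. Counts of lists without 1 library or lane were added after seeing the data. Lanes and animal numbers came from column names of the supplementary tables, joined by equal counts. The labels say that both regions of each brain were taken. By those column names, however, BNST control replicates 1, 2 and 3 were animals 1, 2 and 4, and the mPFC ones animals 2, 3 and 4. Control replicates 1 and 2 of the regions were thus different animals, and the replicate block does not pair them. Residuals of same-numbered libraries of the regions correlated at −0.03 to 0.17, over 0.1 in 1 of 9 pairs by replicate number and in 2 of 8 by animal number. Promoter sequences are from RefSeq. Replicate pairs differed beyond counting noise (chi-square per degree of freedom 3.8 to 78.53), by 8.02 to 78.53 in CFA BNST and 3.8 to 5.45 in CFA mPFC.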

Additional observations from a re-analysis of the deposited data

Results flagged for a closer look

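For 69 genes named in the text, 26 higher and 43 lower, the CFA change differed between the BNST and the mPFC by the interaction test itself. Values are the BNST change minus the mPFC change on the log2 scale. Among striatal genes and genes that stood with them, the differences were −4.56 for Cd4, −4.03 for Serpina9, −3.92 for Adora2a, −3.19 for Gm49702, −3.18 for Lrrc10b, −3.10 for Epyc, −3.10 for Gpr6, −3.06 for Ptprv, −3.03 for Pde10a, −2.98 for Gm12992, −2.95 for Tmem200b, −2.87 for Rgs9, −2.77 for Drd1, −2.38 for Drd2, −2.10 for Tac1 and −2.0 for Penk. Of 15 genes of dividing cells 2 passed, with −2.73 for Mki67 and −1.08 for Mcm5.

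Among genes of channels, receptors and neuronal activity, the differences were −2.54 for Kcnh4, −2.39 for Ryr1, −2.06 for Egr3, −1.81 for Oprd1, −1.65 for Homer1, −1.41 for Pdyn, −1.36 for Kcnip2, −1.35 for Egr4, −1.28 for Cacna1h, −1.25 for Kcnq5, −1.24 for Egr1, −1.22 for Cnr1, −1.11 for Grm5 and −0.87 for Cacnb1. Clock genes gave −1.14 for Per2, −0.68 for Npas2 and −0.59 for Per3.

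Genes that rose more in the mPFC, or fell less, were Mettl11b (−2.58), Ecel1 (−1.49), Rhbdl3 (−1.45), Fst (−1.33), Lyst (−1.05), Trib2 (−0.93) and Fkbp5 (−0.65), and Gm48063 (−1.75) went in opposite directions. Higher in the BNST than in the mPFC were the changes of Chrna3 (2.19), Dnaaf3 (2.16), Gjc1 (2.13), Chdh (2.02), Nwd2 (2.01), Sh3d19 (1.93), Kcng4 (1.86), Tex15 (1.74), Mtfr1 (1.72), Rnf152 (1.71), Plpp2 (1.62), Ankrd34c (1.60), Sgk1 (1.58), Scd3 (1.26) and Cav2 (0.81). The same held for the interferon genes Oasl2 (2.15), Gbp3 (1.80) and Ifit3 (1.3), for the oligodendrocyte genes Ermn (1.21), Bcas1 (1.10) and Ugt8a (0.78), and for Rab7b (2.36), Col24a1 (1.70), Serpinb1a (1.59), Bace2 (1.46) and Prr5l (0.90), which fell more in the mPFC.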

How the results depend on the processing

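Against 792 interaction genes, glmTreat gave 154, the lane 2 libraries 1642 and the animal block 456, and leaving out 1 library gave 497 (without CFA mPFC replicate 1) to 895. The replicate block gave 742. The share with a higher interaction, 27.5%, was 8.44% with glmTreat, 18.9% with the 12 libraries alone, 36.8% with DESeq2 and 47.1% with the lane 2 libraries. Against 2269 BNST genes, glmTreat gave 445 and no minimum fold 4310, and leaving out 1 library gave 1647 to 2744. Against 120 mPFC genes, DESeq2 gave 266, glmTreat 7, the 12 libraries alone 54 and the lane 2 libraries 191. Leaving out 1 library gave 31 (CFA mPFC replicate 1) to 191 (CFA BNST replicate 2), with 56, 44 and 42 without mPFC control replicates 1, 2 and 3 and 60 and 52 without CFA mPFC replicates 2 and 3. Against 52 genes called in both regions, DESeq2 gave 85, glmTreat 4, no minimum fold 79 and the 12 libraries alone 29, and leaving out 1 library gave 15 to 71. With the replicate block, 2183, 115 and 45 genes were called in the BNST, the mPFC and both regions. The other settings stayed within 1.5 times of these counts. Of 274 values of genes named by the rule, none changed sign in any setting. DESeq2 ended 3 calls, RLE 2, limma-voom 29, glmTreat 155, no filter 39, the lane 2 libraries 30, the replicate block 14, the 12 libraries alone 52 and leaving out 1 library 14 to 58, and the animal block ended 39 of 90 interactions. The cause of these differences was not tested. With 3 libraries a group and 1 BNST control in lane 2, lane and treatment were only partly separable in the BNST.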
